A study of Homo sapiens with 414 samples.

Results

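The genes described here are 10 cyclophilins of the nucleus and the cytosol, PPIL1, PPIH, PPIE, PPIL2, PPIL3, PPIL4, PPWD1, CWC27, PPIG and PPIA. They are 10 of the 36135 genes in a count table of single LNCaP cells, and each has 1 row, found through its Ensembl gene identifier. The set was chosen from earlier results of the same knockdown and control cells, in which PPIL1 had stood out as lower, so the values of these genes in that comparison are given as a description. Where a fit across all genes called a member, the call is stated without a p, as part of that description, and is no independent evidence about the member. The knockdown group is LNCaP cells transfected with an siRNA from IDT against SULT2B1, a cytosolic sulfotransferase of sterols. The control group is LNCaP cells that received a non-targeting siRNA bought from Dharmacon. Both were harvested 48 h after transfection. LNCaP is an epithelial line from a human prostate carcinoma, so every cell of both groups comes from 1 line. Each arm received 1 siRNA, and the siRNAs came from different suppliers, so other differences between the siRNAs cannot be told apart from the loss of SULT2B1. Cells were captured on the large size class of Fluidigm C1 plates, checked by eye for a single live cell, and sequenced one by one.

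The table gave 192 knockdown cells (66, 65 and 61 in batches 1, 2 and 3) and 209 control cells (76, 66 and 67). Since cells of 1 capture are not replicates, their counts were added up within each arm and batch to give 3 knockdown and 3 control libraries. Levels are given as CPM, the counts scaled to a fixed total per summed library. Cells held 169244 to 2353816 reads with a median of 1150826, and the summed libraries held 71630108 to 84359044 reads. Capture positions recur in both arms of a batch, so the arms of a batch were captured on different plates, and plate and arm cannot be told apart. SULT2B1 itself had 13, 21 and 0 reads in the 3 knockdown libraries, against 152, 109 and 332 reads in the 3 control libraries. It was read in 2 of 66, 2 of 65 and 0 of 61 knockdown cells, where the 0 allows a share of up to 4.92% of cells by the limit of 3 counts (the exact 95% interval reaches 5.87%), and in 15 of 76, 14 of 66 and 14 of 67 control cells. It was not called by edgeR at this depth, and DESeq2 called it lower. All 10 luminal prostate markers looked for were read, with a summed level of 5225 to 8049 CPM in knockdown libraries and 7866 to 10219 CPM in control libraries, while the blood markers in the table summed to at most 0.122 CPM in knockdown and 0.258 CPM in control libraries, and 1 of those 4 had no read. Markers of other cell types were also low: basal epithelial markers summed to 0.3996 to 0.945 CPM in knockdown and 0.0902 to 1.21 CPM in control libraries, endothelial markers to 3.79 to 4.73 CPM in knockdown and 0.957 to 11.2 CPM in control libraries, and fibroblast markers to 2.34 to 9.62 CPM in knockdown and 5.07 to 13.0 CPM in control libraries.

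Cyclophilins bind the amino acid proline within a protein chain and turn the peptide bond before it between its cis and trans forms, which can set the pace of folding or of a switch in shape. PPIA is the abundant cytosolic member and the main cellular receptor of the immunosuppressant cyclosporin A. Several others are built into the spliceosome, the machine of small nuclear RNAs and proteins that removes introns from pre-mRNA, where they join at defined stages of its assembly and activation. Splicing cyclophilins differ in the domains they carry beside the isomerase fold, such as an RNA recognition motif in PPIE and PPIL4, a U-box in PPIL2, WD repeats in PPWD1 and a long arginine and serine rich tail in PPIG.

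The promoters of PPIL1 and PPIH are shown because these were the members with the lowest levels in knockdown relative to control cells. Both are RefSeq sequences of build GRCh38.p14, 250 bases before to 50 bases after the annotated start, read 5′ to 3′ on the strand of the gene. Capitals mark matches on either strand to the letters CCAAT (the CCAAT box), GGGCGG (a GC box), CCGGAAG (the core bound by ETS family factors) and ATGGCG (the core bound by YY1). PPIL1 lies on the minus strand and its window is chr6:36874754-36875053, and PPIH lies on the plus strand with its window at chr1:42658173-42658472.
PPIL1: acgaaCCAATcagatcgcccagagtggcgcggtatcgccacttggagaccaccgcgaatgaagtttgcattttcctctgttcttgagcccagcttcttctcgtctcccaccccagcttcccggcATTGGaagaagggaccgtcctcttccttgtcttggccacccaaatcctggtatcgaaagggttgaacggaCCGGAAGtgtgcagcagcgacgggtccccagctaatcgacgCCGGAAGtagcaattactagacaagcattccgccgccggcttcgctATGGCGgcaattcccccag
PPIH: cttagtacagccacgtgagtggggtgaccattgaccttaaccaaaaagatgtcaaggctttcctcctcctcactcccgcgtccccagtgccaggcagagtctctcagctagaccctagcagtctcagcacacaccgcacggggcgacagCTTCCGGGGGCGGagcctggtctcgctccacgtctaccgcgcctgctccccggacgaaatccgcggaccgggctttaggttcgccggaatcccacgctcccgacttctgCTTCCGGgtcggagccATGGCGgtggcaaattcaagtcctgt
The PPIL1 window held the ETS letters at positions 195 and 236, CCAAT at positions 6 and 125 and the YY1 letters at position 282, counted from its first base. In PPIH the ETS letters began at positions 150 and 259, the GC box at 157, directly after the first of these, and the YY1 letters at 275. In both windows the YY1 letters lie in the last 50 bases, after the annotated start, and open with ATG, the letters of a start codon. They may therefore be the start of the protein code, and whether YY1 binds them was not tested. The RefSeq table had a promoter for 8 of the 10 members. Of these 8, the ETS letters were in 4 (PPIH, PPIL1, PPIL2 and PPIL4), against 10.3% of the 35116 promoters in the table. The YY1 letters were in 5 of 8 (CWC27, PPIH, PPIL1, PPIL4 and PPWD1), against 10.7% of all promoters. The ETS and YY1 letters both contain CG. The windows of the members held CG from 13 times in PPIL3 to 40 times in PPIA, with 23 in PPIL1 and 24 in PPIH. The median over all promoters was 14, and the shares over all promoters were not matched for CG. CCAAT was in 4 of 8 members and 34.6% of all promoters, and the GC box in 4 of 8 and 45.0%. TATAAA (the TATA box) was in PPIA alone among the 8 and in 11.5% of all promoters. TTTGAA, a core of the cell cycle homology region, was in PPIL3 and PPIL4 and in 15.2% of all promoters, and in neither PPIL1 nor PPIH. Such matches are letters in a window and were not tested as binding sites, and the motifs were picked after expression values had been seen.

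PPIL1 is an isomerase that binds the splicing factor SNW1 and belongs to the group of proteins that join with the PRP19 complex when the spliceosome is activated. Its gene (ENSG00000137168) covers chr6:36854827-36875024 on the minus strand in the GENCODE 29 annotation of GRCh38. PPIL1 had 23.5, 21.0 and 23.7 CPM in knockdown libraries 1, 2 and 3, against 103, 125 and 114 CPM in control libraries 1, 2 and 3. Every knockdown library lay far below every control library, and the knockdown values lay within a few CPM of each other. The means were 22.7 ± 1.49 CPM in knockdown and 114 ± 10.96 CPM in control libraries (SD, n = 3 each), so knockdown cells held 19.9% of the control level. Batch by batch the knockdown level was 22.7%, 16.8% and 20.8% of the control level of the same batch. The log2 fold change was -2.33 (SE 0.16).

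**Figure D1:**
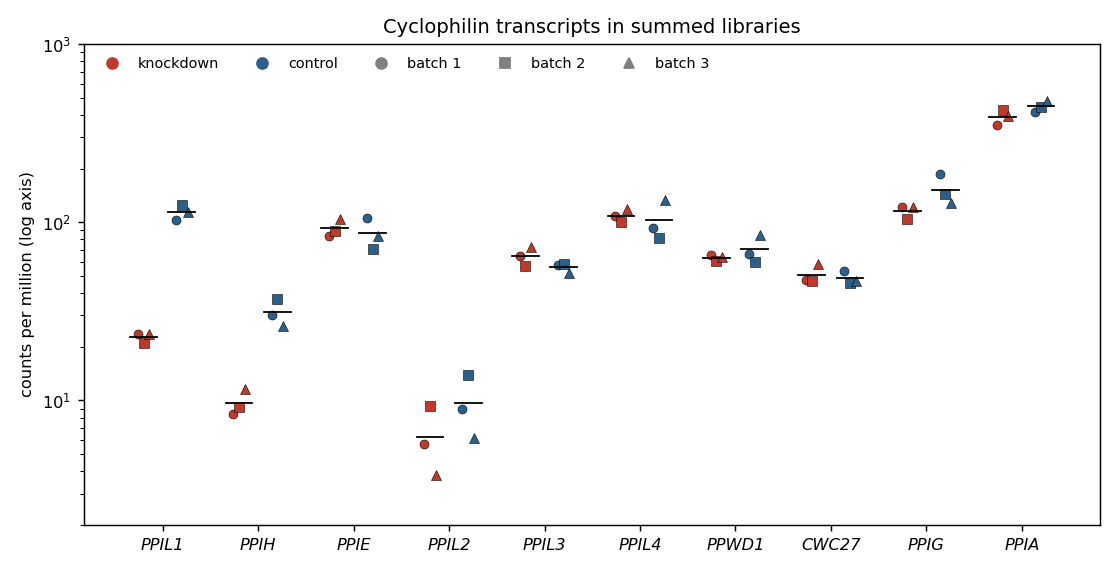
Level of each of the 10 cyclophilin transcripts in CPM (log axis), with 1 point for each summed library, knockdown left of control and the marker shape giving the batch. PPIL1 sits at 21.0 to 23.7 CPM in knockdown and 103 to 125 CPM in control libraries. PPIH sits at 8.37 to 11.5 CPM in knockdown and 26.3 to 37.0 CPM in control libraries. PPIG, at 105 to 122 CPM in knockdown and 128 to 186 CPM in control libraries, does not overlap between arms either, and the remaining members do.

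PPIH, which is little more than the isomerase fold, sits in the tri-snRNP, where it binds PRPF4. Its gene (ENSG00000171960) covers chr1:42658425-42676758 on the plus strand. PPIH had 8.37, 9.18 and 11.5 CPM in knockdown libraries, against 30.2, 37.0 and 26.3 CPM in control libraries. The highest knockdown library was below the lowest control library, and batch 3 showed the smallest gap. The means were 9.69 ± 1.64 CPM in knockdown and 31.2 ± 5.43 CPM in control libraries (SD, n = 3 each), with a log2 fold change of -1.68 (SE 0.25). By batch the knockdown level was 27.7%, 24.8% and 43.8% of the control level.

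In the fit across all 20326 genes with edgeR's quasi-likelihood test, 0.384% of genes were called lower and 0.394% were called higher in knockdown at an adjusted p under 0.05, which is 0.777% in either direction. PPIL1 and PPIH were the 2 of 10 members called lower, and no member was called higher. Because that contrast chose the set, nothing is read from this share or from either call, and the alternative settings reuse the same libraries. They only describe how the values depend on the fit: PPIL1 was past the threshold in all 12 of them and PPIH in 5 of 12. PPIH was not past it with the batch as a block (log2 fold change -1.68, SE 0.28), a fit that called 0.187% of all genes, nor when any 1 of the 6 libraries was left out, with log2 fold changes of -1.83 to -1.54. Of all 20326 genes, 475 had a log2 fold change at or below that of PPIL1, itself included, and 997 at or below that of PPIH. Among the 10480 genes averaging at least 5 CPM, the counts were 22 for PPIL1 and 101 for PPIH.

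The other member of the PRP19 group, PPIE, had 83.4, 88.8 and 105 CPM in knockdown, against 106, 70.2 and 83.7 CPM in control libraries. In knockdown cells PPIE was lower than in control cells in batch 1 and higher in batches 2 and 3, and its log2 fold change was 0.09 (SE 0.19). Together with PPIL1 this gives 2 isomerases of the same stage of the spliceosome with different values: 19.9% of the control level for PPIL1 and 107% for PPIE.

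Among the cyclophilins of the activated spliceosome, PPIL2, a U-box protein with the sequence features of a ubiquitin ligase, was the least abundant member. It had 5.72, 9.26 and 3.79 CPM in knockdown, against 8.91, 13.9 and 6.16 CPM in control libraries. The knockdown library was lower within each batch, at 64.2%, 66.9% and 61.6% of control, but the batches differed from each other by more than that and the groups overlapped (log2 fold change -0.62, SE 0.47). PPIL4, which carries an RNA recognition motif, had 108, 99.97 and 118 CPM in knockdown, against 92.4, 81.3 and 134 CPM in control libraries (log2 fold change 0.08, SE 0.20). CWC27, whose isomerase fold is thought to have lost catalytic activity, had 47.5, 46.9 and 58.0 CPM in knockdown, against 53.2, 45.5 and 46.9 CPM in control libraries (log2 fold change 0.07, SE 0.17). For both genes the groups overlapped and the direction differed between batches.

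PPIL3 and PPWD1 have been found in spliceosomes at the catalytic steps. PPIL3 had 64.3, 56.8 and 72.1 CPM in knockdown, against 57.8, 58.0 and 52.1 CPM in control libraries (log2 fold change 0.20, SE 0.16). PPWD1 had 65.1, 60.4 and 64.0 CPM in knockdown, against 66.6, 59.5 and 84.9 CPM in control libraries (log2 fold change -0.16, SE 0.17). Neither gene separated the arms, and the control value of PPWD1 in batch 3 was its highest.

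PPIG, a cyclophilin of nuclear speckles, the bodies that store splicing factors, had 122, 105 and 121 CPM in knockdown, against 186, 143 and 128 CPM in control libraries. All 3 knockdown libraries were below all 3 control libraries, though in batch 3 the knockdown level was 95.0% of the control level, after 65.7% and 73.0% in batches 1 and 2. The log2 fold change was -0.39 (SE 0.17), and PPIG was not called in the fit across genes. With PPIL1 and PPIH this made 3 of 10 members whose knockdown libraries all lay below the control libraries, where 10.1% of all genes tested did so, and 0 of 10 with the reverse order, which 10.5% of all genes showed. The contrast that chose the set is the one counted here, so these shares are a description.

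PPIA had 350, 428 and 396 CPM in knockdown, against 415, 445 and 479 CPM in control libraries. It was the most abundant member, the knockdown library was lower in each batch, and the groups overlapped (log2 fold change -0.19, SE 0.11). The PPIA count stands beside those of near-identical processed pseudogenes: 51 rows of the table carry a PPIA pseudogene, of 88 named in the annotation, and all 51 had reads. Their reads came to 114%, 89.7% and 101% of the reads given to PPIA in knockdown libraries, and 105%, 86.9% and 93.2% in control libraries. PPIAP22 alone held 88.2% of them. How reads that match PPIA and a copy were divided is not given in the sources used here, so the level of PPIA itself is uncertain. The sum of PPIA and its pseudogene rows was 785 ± 33.3 CPM in knockdown and 869 ± 49.4 CPM in control libraries (SD, n = 3 each), which is 90.3% of control. The sums did not overlap, at 748 to 812 CPM in knockdown and 831 to 925 CPM in control libraries, whereas PPIA alone did.

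**Figure D2:**
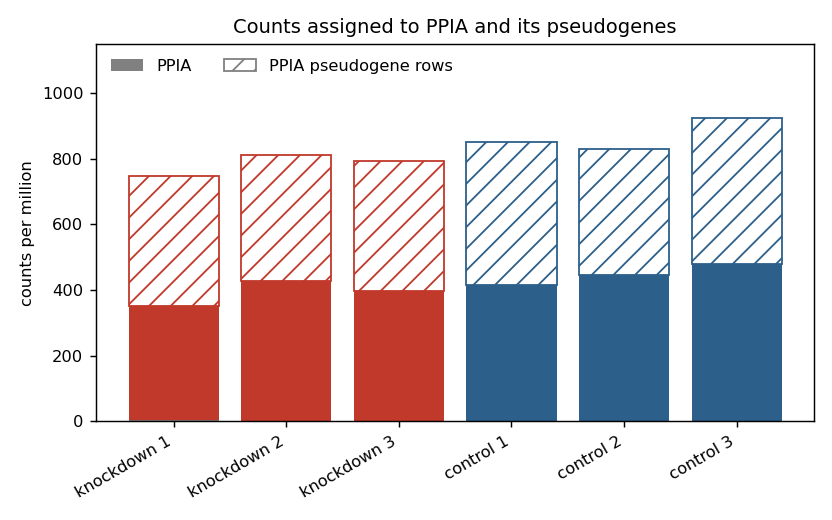
CPM given to PPIA and to its 51 pseudogene rows in each of the 6 summed libraries, knockdown on the left. The pseudogene rows hold 384 to 399 CPM in knockdown and 386 to 446 CPM in control libraries, close to the level of PPIA itself.

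PPIH has a pseudogene too. PPIHP1 had 15, 9 and 12 reads in knockdown, against 43, 55 and 79 reads in control libraries, which is few beside the 670 to 988 reads of PPIH in knockdown and the 2042 to 2708 reads of PPIH in control libraries.

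Over the 10 members the median log2 fold change was -0.17, with 6 below 0 and 4 above, where all genes tested had a median of 0.01 and quartiles of -0.44 and 0.45. The remaining cyclophilins, some of which work in the endoplasmic reticulum, the mitochondrion, the cytosol or the nuclear pore, served as a comparison. Of 9 in the table, 7 could be tested and 0 were called by edgeR, 0 had an unadjusted p under 0.05 and 0 were called by DESeq2, which called 7.94% of the genes it could adjust. PPIB, the cyclophilin of the endoplasmic reticulum, had 349 ± 33.2 CPM in knockdown and 300 ± 42.0 CPM in control libraries (log2 fold change 0.22, SE 0.14). PPID, a partner of the chaperone HSP90, had 126 ± 7.98 CPM in knockdown and 116 ± 21.6 CPM in control libraries (0.11, SE 0.16). PPIF, which sits in the mitochondrial matrix, had 60.5 ± 13.2 CPM in knockdown and 66.1 ± 7.34 CPM in control libraries (-0.13, SE 0.20). NKTR (-0.15, SE 0.11), the nuclear pore protein RANBP2 (-0.18, SE 0.13), PPIC (-0.27, SE 0.29) and PPIL6 (-0.57, SE 0.99) had negative log2 fold changes, and the groups overlapped for all 7 genes.

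**Figure D3:**
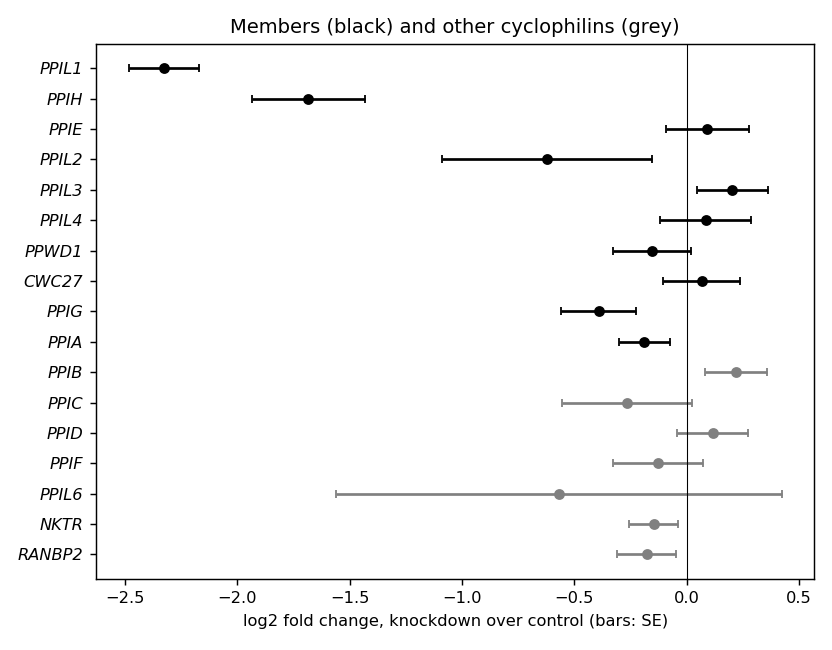
Log2 fold change of knockdown over control with its SE for the 10 members (black) and the 7 other cyclophilins tested (grey). PPIL1 at -2.33 and PPIH at -1.68 stand apart at the low end, and the other members lie between -0.62 and 0.20.

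Levels of different genes can be compared only per length, so CPM was divided by the summed length of each gene's exons. In control libraries the order was PPIA at 101 ± 7.22 CPM per kb, PPIL1 at 63.0 ± 6.06, PPIL4 at 38.7 ± 10.4, PPIH at 21.6 ± 3.76, PPIG at 20.7 ± 4.13, PPIL3 at 19.2 ± 1.15, PPWD1 at 18.6 ± 3.46, CWC27 at 13.0 ± 1.09, PPIE at 10.7 ± 2.23 and PPIL2 at 1.26 ± 0.508 CPM per kb (SD, n = 3). PPIA, PPIL1, PPIL4 and PPIL2 each stood clear of their neighbours in that order with this length, while the 4 genes from PPIH to PPWD1 overlapped, as did CWC27 and PPIE. In knockdown libraries PPIL1 had 12.5 ± 0.823 CPM per kb and was 7th of 10 instead of 2nd, overlapping CWC27 and PPIE. PPIH had 6.71 ± 1.14 CPM per kb in knockdown and was 9th instead of 4th. With the longest transcript as the length, PPIL1 was 8th in knockdown and 2nd in control libraries, and PPIH again 9th and 4th. That length raised levels per kb, such as that of PPIH in control libraries at 41.4 ± 7.23 CPM per kb, and with it PPIL4 at 36.4 to 59.9 CPM per kb overlapped both PPIL1 at 59.4 to 72.0 and PPIH at 35.0 to 49.2 CPM per kb in control libraries.

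The lower totals of PPIL1 and PPIH could lie in fewer cells with a read or in fewer reads per cell, and both were measured. PPIL1 was read in 26 of 66, 19 of 65 and 32 of 61 knockdown cells, which is 39.4%, 29.2% and 52.5% (exact 95% intervals 27.6 to 52.2%, 18.6 to 41.8% and 39.3 to 65.4%). In control cells it was read in 61 of 76, 56 of 66 and 58 of 67, which is 80.3%, 84.8% and 86.6% (69.5 to 88.5%, 73.9 to 92.5% and 76.0 to 93.7%). These intervals cover counting error only. No knockdown batch reached the lowest control batch. Among the cells with a read, the median PPIL1 level was 22.0, 27.3 and 14.3 CPM in knockdown, against 113, 103 and 98.0 CPM in control cells, so both measures were lower.

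PPIH was read in 29 of 66, 30 of 65 and 28 of 61 knockdown cells, a mean of 45.3 ± 1.21% over batches, against 50 of 76, 56 of 66 and 55 of 67 control cells, a mean of 77.6 ± 10.3% (SD, n = 3 each). Among cells with a read its median was 13.3, 10.01 and 23.0 CPM in knockdown and 30.5, 36.5 and 19.5 CPM in control cells. The share of cells separated the arms in every batch. The median among cells with a read was lower in knockdown in batches 1 and 2 but higher in batch 3. In control library 3, 1 cell held 20.6% of the PPIH reads. When every cell was thinned to 100000 reads, PPIL1 was read in 24.6% of knockdown and 72.2% of control cells, and PPIH in 31.8% of knockdown and 60.2% of control cells, as means over batches.

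**Figure D4:**
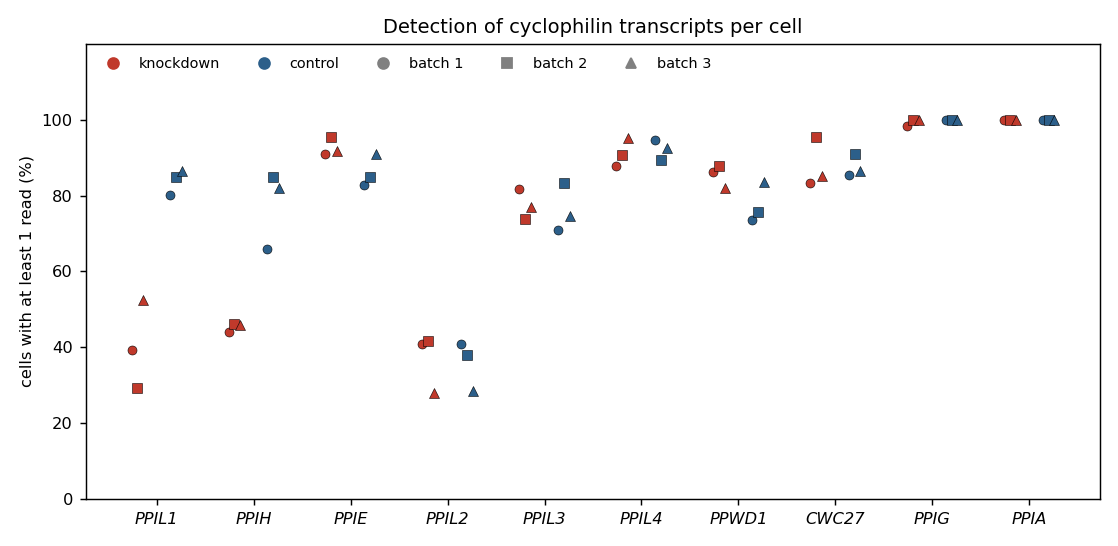
Share of cells with at least 1 read of each member, in percent, for each arm and batch (knockdown left of control). PPIL1 lies at 29.2 to 52.5% in knockdown and 80.3 to 86.6% in control cells, PPIH at 43.9 to 46.2% in knockdown and 65.8 to 84.8% in control cells, and PPIG and PPIA are at or near 100% in both arms.

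The other 8 members were read in similar shares of cells in both arms. As means over batches, PPIE was read in 92.7% of knockdown and 86.3% of control cells, PPWD1 in 85.3% of knockdown and 77.7% of control cells, and PPIL3 in 77.6% of knockdown and 76.3% of control cells. PPIL4 was read in 91.2% of knockdown and 92.2% of control cells, CWC27 in 88.0% of knockdown and 87.7% of control cells, and PPIL2 in 36.8% of knockdown and 35.7% of control cells. PPIG was read in 191 of 192 knockdown cells and 209 of 209 control cells, and PPIA in every cell of both arms. Cells in which over 20% of reads were mitochondrial numbered 8 of 192 in knockdown and 35 of 209 in control, and their part in the shares was not tested beyond leaving them out. Without them PPIL1 was read in 41.2% of knockdown and 90.1% of control cells, and PPIH in 46.7% of knockdown and 83.2% of control cells. The order of the arms turned for PPIE, at 95.7% of knockdown and 96.6% of control cells, PPIL3, at 78.9% of knockdown and 83.5% of control cells, CWC27, at 90.04% of knockdown and 93.3% of control cells, and PPIL2, at 38.5% of knockdown and 38.8% of control cells.

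PPIL1 and PPIH were read in the same cell in 42 of 192 knockdown cells, against 139 of 209 control cells. PPIL1 alone of the pair was read in 35 knockdown and 36 control cells, PPIH alone in 45 knockdown and 22 control cells, and neither in 70 knockdown and 12 control cells. The largest differences in cell numbers between arms were in cells with both and cells with neither. Lower shares of cells for each gene alone give fewer cells with both and more with neither. These counts also pool the batches, so no link between PPIL1 and PPIH is read from them.

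**Figure D5:**
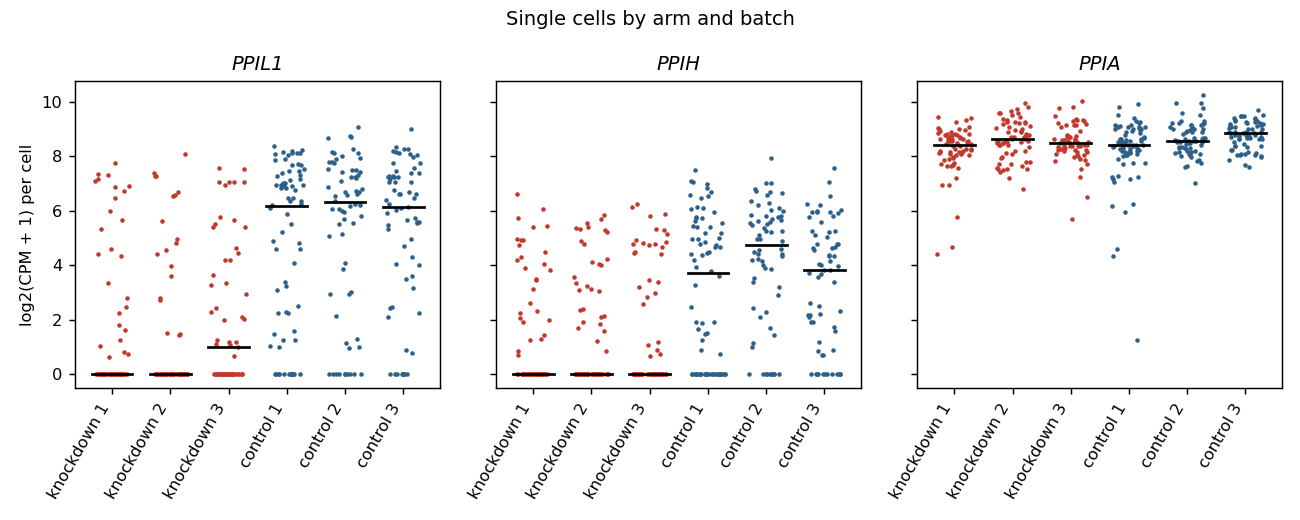
Level of PPIL1, PPIH and PPIA in single cells, as log2(CPM + 1), for each arm and batch, knockdown on the left and 1 point for each cell. Points at 0 are cells without a read: 115 of 192 knockdown and 34 of 209 control cells for PPIL1, and 105 of 192 knockdown and 48 of 209 control cells for PPIH. PPIA had a read in every cell.

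Over 45 pairs of members, the mean of the 6 within-library correlations of log2(CPM + 1) ran from -0.04 for PPIL2 with PPIL3 to 0.29 for PPIE with PPIA, with a median of 0.13. Single libraries differed widely, and PPIE with PPIA ran from 0.09 in control library 3 to 0.58 in control library 1. PPIL1 with PPIH gave a mean of 0.15. Cells of a library share depth and capture, and counts per cell are sparse, so these values are a description and no finding. Members were also correlated with a score per cell, the mean of log2(CPM + 1) over the genes of a list, each gene weighing equally. With the score of 20 S phase genes, PPIL1 gave a correlation of 0.24 to 0.41 and PPIH of 0.22 to 0.42 over the 6 libraries. PPIL4 gave 0.14 to 0.39 and PPIA 0.05 to 0.39, and each of the other 6 members had at least 1 library at or below 0. With the score of 15 interferon response genes, PPIL1 gave -0.11 to 0.41 and PPIH -0.17 to 0.32. PPIA ran from -0.38 in knockdown library 3 to 0.42 in control library 1, and each of the 10 members had libraries on both sides of 0.

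Fewer reads of S phase genes were also present in knockdown cells, whose summed level of these genes was 791 to 1052 CPM, against 1449 to 2038 CPM in control libraries. Of 20 on the list, 2 were called lower in the fit across genes, SLBP, which binds histone mRNA, at 14.3 ± 2.91 CPM in knockdown and 57.6 ± 6.66 CPM in control libraries (adjusted p = 0.011 by edgeR), and RRM2, a subunit of ribonucleotide reductase, at 48.2 ± 13.7 CPM in knockdown and 190.6 ± 48.8 CPM in control libraries (adjusted p = 0.025 by edgeR). Their median log2 fold change was -1.01, all 20 values were below 0, and in 18 of 20 all knockdown libraries lay below all control libraries, where 10.1% of all genes did. The call of SLBP held in 7 of 12 alternative settings and that of RRM2 in 5 of 12, and the settings that lost them were fits with the batch as a block or with 1 library left out. Beyond the correlations within libraries, the part of S phase in the levels of PPIL1 and PPIH was not tested.

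Of 15 genes of the interferon response, 12 were called higher in knockdown cells, where 0.394% of all genes were. The 4 with the smallest adjusted p were IFIT2, RIGI, IFI6 and IFIT1. IFIT2 had 2024 ± 297 CPM in knockdown and 7.09 ± 2.08 CPM in control libraries (SD, n = 3 each). The RNA sensor RIGI had 372 ± 40.1 CPM in knockdown and 16.4 ± 3.07 CPM in control libraries, IFI6 165 ± 19.0 CPM in knockdown and 4.37 ± 1.11 CPM in control libraries, and IFIT1 796 ± 151 CPM in knockdown and 2.98 ± 1.65 CPM in control libraries. Their median log2 fold change was 4.81, also with RSAD2, which had no read in any control library, set to its bound from 3 counts over the control group. Among the luminal markers the androgen receptor targets KLK3 (280 ± 71.0 CPM in knockdown and 798 ± 200 CPM in control libraries) and KLK2 (45.6 ± 8.57 CPM in knockdown and 109 ± 16.9 CPM in control libraries) were called lower, and KLK3 was also called in 5 and KLK2 in 4 of 12 alternative settings. Over the 10 luminal markers the median log2 fold change was -0.14. The 2 called lower of these 10 stand beside 0.384% of all genes. In 4 of the 10 all knockdown libraries lay below all control libraries, where 10.1% of all genes did. In 2, the keratins KRT8 (0.81, SE 0.17) and KRT18 (0.61, SE 0.11), all knockdown libraries lay above, where 10.5% of all genes did. Beyond the correlations within libraries, whether the cyclophilins moved with the interferon or the luminal genes was not tested.

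By a rule on the 3 within-batch differences of log2(CPM + 1), the 5 genes closest to PPIL1, of 10479 ranked, were MELK, NCAPG2, ENSG00000272579, E2F7 and H4C3. MELK, a kinase of dividing cells, had 20.5, 16.5 and 20.3 CPM in knockdown, against 87.6, 111 and 78.9 CPM in control libraries. NCAPG2, a condensin subunit, had 15.0, 9.72 and 6.46 CPM in knockdown, against 66.2, 68.3 and 43.3 CPM in control libraries. E2F7, a transcription factor of the cell cycle, had 7.04, 2.03 and 1.83 CPM in knockdown, against 21.8, 17.5 and 12.1 CPM in control libraries, and was not called by edgeR but was called lower by DESeq2. The other 4 were called lower by edgeR. Over the 12 alternative settings MELK was called in 11, H4C3 in 11, ENSG00000272579 in 9 and NCAPG2 in 5. With the batch as a block MELK, ENSG00000272579 and NCAPG2 were not called. H4C3 was not called without knockdown library 2, ENSG00000272579 without knockdown library 2 or control library 1, and NCAPG2 without any 1 of the 6 libraries. The histone gene H4C3 had 286, 251 and 179 CPM in knockdown, against 1149, 942 and 824 CPM in control libraries. Likeness here rests on 3 batches, the 5 genes were picked for a like fold, and 4 of them stayed among the closest 5 with a pseudocount of 0.25. PPIH was ranked 45th.

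Splicing genes beyond the cyclophilins were read from 7 lists of 90 genes, of which 89 were tested. None was called by edgeR (0 of 89), and 20 had an unadjusted p under 0.05, which is 22.5% of them against 13.5% of all genes. DESeq2 called 6 of them, which is 6.74%, against 7.94% of the genes it could adjust. The median log2 fold change was -0.09, and values ran from -0.98 for XAB2 to 0.92 for YJU2. All knockdown libraries lay below all control libraries for 15 of 89 genes (16.9%), against 10.1% of all genes. They lay above them for 10 (11.2%), against 10.5% of all genes.

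The core proteins that ring the small nuclear RNAs, the Sm and LSm proteins, summed to 1630 to 1979 CPM in knockdown and 2088 to 2391 CPM in control libraries. Their median log2 fold change was -0.23. Of 14, 5 had knockdown libraries all below control libraries, where 10.1% of all genes did, and 0 had the reverse order, which 10.5% showed. Among the 5 were LSM3 (174 ± 34.5 CPM in knockdown and 281 ± 22.1 CPM in control libraries, log2 fold change -0.70, SE 0.16) and LSM8 (-0.55, SE 0.15). Of the proteins of the PRP19 group, 14 were tested with a median of 0.18, and BUD31 had 116 ± 13.2 CPM in knockdown and 80.7 ± 6.18 CPM in control libraries (0.52, SE 0.14), while AQR had 96.4 ± 13.0 CPM in knockdown and 131 ± 4.89 CPM in control libraries (-0.44, SE 0.14). The 7 proteins of the tri-snRNP beside PPIH had a median of -0.13, with PRPF31 at -0.40 and USP39 at -0.33. The direct partners, picked after their values were seen, did not share the low level of their cyclophilin. SNW1, which binds PPIL1, had 146 ± 6.53 CPM in knockdown and 126 ± 14.9 CPM in control libraries (0.21, SE 0.13), and PRPF4, which binds PPIH, had 45.4 ± 1.13 CPM in knockdown and 45.7 ± 9.53 CPM in control libraries (-0.01, SE 0.19).

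Of 8 U5 proteins, SNRNP40 had 91.7 ± 1.78 CPM in knockdown and 142 ± 19.8 CPM in control libraries (-0.63, SE 0.14) and PRPF6 had 44.0 ± 4.82 CPM in knockdown and 29.3 ± 2.98 CPM in control libraries (0.59, SE 0.19). In the list of activation and catalytic factors, PRPF18 (0.78, SE 0.27) and WBP4 (0.58, SE 0.21) lay higher in every knockdown library than in any control library. Among the U1 and U2 proteins SNRPA1 stood at -0.43 and SF3B1 at -0.28, and among the SR proteins, which mark exons, SRSF2 at -0.55 and SRSF10 at -0.44. None of these genes was called by edgeR.

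Prolyl isomerases of other folds were not called by edgeR either. Of 15 FKBP and parvulin genes tested, 0 were called by edgeR, and the median log2 fold change was 0.08. An unadjusted p under 0.05 was found for 3 of 15, where 13.5% of all genes had one. DESeq2 called 3 of 15, where it called 7.94% of the genes it could adjust. FKBP7, an isomerase of the endoplasmic reticulum, had 2.95 ± 0.761 CPM in knockdown and 10.3 ± 2.43 CPM in control libraries (-1.80, SE 0.39), and FKBP3, a nuclear isomerase, had 284 ± 15.1 CPM in knockdown and 217 ± 13.9 CPM in control libraries (0.39, SE 0.11). Of 8 genes around the PPIA ligand cyclosporin A and its receptor BSG, that is calcineurin, its NFAT targets and BSG (CD147), 0 were called by edgeR or by DESeq2 and 0 had an unadjusted p under 0.05. Their median was -0.15, and values ran from -2.08 (SE 1.42) for NFATC2 to 0.98 (SE 0.42) for NFATC3, with NFATC1 at -1.25 (SE 0.63).

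The neighbours of the members bear on how their reads were assigned, since the strand setting of the counting is not given in the sources used here. C6orf89 lies on the opposite strand and overlaps PPIL1 over 3155 bases of gene body and 3 bases of exon. It had 49.7, 49.0 and 55.9 CPM in knockdown, against 42.9, 42.9 and 47.0 CPM in control libraries, all knockdown libraries above all control libraries (0.22, SE 0.16, not called by edgeR or DESeq2). CENPK, a centromere protein whose start lies 65 bases from that of PPWD1 on the other strand, had 59.2, 30.3 and 36.4 CPM in knockdown, against 102, 115 and 71.9 CPM in control libraries (-1.20, SE 0.30), and was not called by edgeR but was called lower by DESeq2. PPWD1 on the other side of that start had a log2 fold change of -0.16. NIF3L1, whose start is 24 bases from that of PPIL3, stood at -0.21 (SE 0.14), and SREK1IP1, 245 bases from CWC27, at -0.02 (SE 0.19). YPEL1 shares 2472 exonic bases with PPIL2 from the opposite strand and had at most 1.46 CPM in knockdown and 0.75 CPM in control libraries. BMP8B shares 80 exonic bases with PPIE from the opposite strand. It had 0.175, 0.729 and 0.0117 CPM in knockdown, against 2.29, 1.08 and 12.1 CPM in control libraries (-4.07, SE 1.48, not called by edgeR). HPCAL4, whose start is 493 bases from that of PPIE, stood at 1.78 (SE 1.81), and its groups overlapped. An antisense gene shares 561 exonic bases with PPIH and was not analysed here. If counting ignored strand, reads of the 2 genes cannot be told apart.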

How the data were processed

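Gene counts of single LNCaP cells were analysed as deposited. The authors deposited whole-number counts per Ensembl gene and cell. The submitters' processing notes name build GRCh38.p3 and the tools HTSeq 0.6.1, TopHat2 2.1.0, edgeR 3.2.2 and FastQC 0.11.3; for the annotation and the strand setting, the sources used here give nothing. Per the labels' protocols, a capture site was kept where it held exactly 1 cell that excluded the dead-cell dye ethidium homodimer-1. The 6 libraries labelled as several cells and 4 columns that matched no labelled single cell were not used.

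Counts of 401 cells were summed to 3 knockdown and 3 control libraries of 71630108 to 84359044 reads. Symbols came from a gene name table (34891 of 36135 rows) and GENCODE 29 (257 more). edgeR 4.0.16 (R 4.3.3) was run with TMM factors (CPM uses the same scaled library sizes), filterByExpr (minimum count 10, 20326 genes kept), a robust quasi-likelihood fit without covariates, and Benjamini-Hochberg adjustment over all genes at 0.05. Alternatives were size factors by relative log expression, DESeq2 1.42.0, no filter, the batch as a block, omission of cells with over 20% mitochondrial reads, equal weight for each cell (limma 3.58.1 on log2(mean CPM + 1)), and omission of each library. DESeq2 left adjusted p-values undefined for genes it filtered. The labels give both arms of a batch the same batch number, so batches pair the arms; the correlation of deviations from the arm means was 0.0780, 0.000547 and 0.000233 in batches 1, 2 and 3. The labels do not say whether batches are separate cultures, and p-values reflect only how far batches differ, which may be partly technical. Only the main edgeR fit was tested on simulated data, which held no batch effect. The alternative fits were not tested in that way.

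Detection used at least 1 read (alternatives: 5 reads, or each cell thinned to 100000 reads). Doublets were treated only by the inspection described above. Named by rule were the 10 members, SULT2B1, the other cyclophilins, up to 4 called genes of each list by adjusted p (or, with none called, the 2 with the smallest p), and the 5 genes closest to PPIL1 by Euclidean distance of the 3 within-batch differences. Outside this rule, the text names genes at the ends of a list's range, binding partners, KRT8, KRT18, RSAD2, pseudogenes and neighbouring genes. The binding partners were picked after their values were seen. The members and the gene lists were chosen with earlier results of these data known. Promoters came from RefSeq (GRCh38.p14), and gene spans and exon lengths from GENCODE 29.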

Additional observations from a re-analysis of the deposited data

How the results depend on the processing

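The number of genes called was 158 and became 309 with no filter on low counts, 38 with the batch as a block, 1442 with DESeq2 and 242 with equal weight for each cell, and 46 to 69 when 1 library was left out. Of the members, 2 were called, which is a description because this contrast chose them, and 1, always PPIL1, was called with the batch as a block or with any 1 library left out. With the replicate block PPIH had a log2 fold change of -1.68 and was not called, and without 1 library it had -1.83 to -1.54 and was not called. No direction of PPIL1 or PPIH changed under any of the 12 alternatives, and no gene named with a call changed direction. The causes of lost calls were not tested beyond the smaller number of libraries or residual degrees of freedom that those fits have by construction. Of the 38 genes called with the block, 37 were among the 158. Sums over 3 batches limit the precision of every member, PPIL2 most, at 325 to 1013 reads in a library. PPIA is limited by its pseudogene rows.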
